A study of Mus musculus with 10 samples.

Results

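The globin and red cell genes examined here were Hba-a1, Hba-a2, Hbb-b1, Hbb-b2, Alas2, Epor, Klf1, Slc4a1 and Epb4.2. Members were the non-control array probes that carry 1 of these 9 names in the scanner files, 8 probes for 7 genes of 41174 probes in all. No probe carries the name Hbb-b1 or Hbb-b2. The files instead name 4 probes Hbb-bt, an adult beta globin gene, and these were set beside the members after the files had been read and are kept out of every count of members. The arrays measured total RNA of 10 mouse samples in 5 groups of 2. The groups "leukemia 686", "leukemia 713" and "leukemia 760" are B cell acute lymphoblastic leukemias, each taken from the lymph node of 1 mouse of genotype Ebf1+/- Pax5+/- (dHet). The dHet proB group is Ebf1+/- Pax5+/- Rag2-/-. Its cells were grown out of c-Kit+ fetal liver cells over OP9 stroma, a feeder line, in medium that held SCF, Flt3L and IL-7. The wt proB group is Ebf1+/+ Pax5+/+ and was sorted from bone marrow as Fraction BC. The groups thus differ in tissue, culture and Rag2 as well as in leukemia, and the labels give no ages. Nothing in the labels tells if both replicates of a group came from different animals or cultures, so the p-values measure the spread between these samples. The spread between replicates of a group may be technical, except in dHet proB, whose replicates differed in sex-linked RNA as given below. Tests of the leukemias against proB cells took 1 mean per mouse, so their spread also includes that between the leukemic mice.

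Hemoglobin, the oxygen carrier of red cells, joins alpha chains (Hba-a1, Hba-a2) and beta chains (the Hbb genes) around heme. Red cell precursors make it under transcription factors such as GATA1 and KLF1 and after signals of erythropoietin through its receptor, Epor. Globin messenger RNA is so abundant in the red cell lineage that it persists in reticulocytes, the youngest red cells of the blood, after the nucleus is lost.

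The alpha globin probes overlap in part of their sequence. The probe of Hba-a1 lies at chr11:32183775-32183956 on mm9, the build of the file headers, on the plus strand. Its 60 bases span 182 bases of genome. The Hba-a2 probe is listed as unmapped. Capitals mark the stretch of 30 bases that both share.

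Hba-a1 probe: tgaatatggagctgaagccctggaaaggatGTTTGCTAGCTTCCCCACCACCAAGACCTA
Hba-a2 probe: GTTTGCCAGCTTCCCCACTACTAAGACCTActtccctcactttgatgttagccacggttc

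Within that stretch 27 bases were identical, and the differences were T7C, C19T and C22T, counted from the first capital with the base of the Hba-a1 probe first. The 2 genes are near-identical copies, so each probe may bind both messages, which was not tested. Their signals are therefore not taken as separate measurements. The promoters are alike as well: of 297 aligned bases around the RefSeq starts of Hba-a1 and Hba-a2, 297 were identical.

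The promoters of Hba-a1, Hbb-bt and Alas2 are shown because these genes moved together across the arrays. They are the 250 bases before the start in RefSeq on GRCm38.p6. Capitals mark GATAA, the core of GATA sites, and CACCC, a motif that Krüppel-like factors bind, on either strand. Hba-a1 is at chr11:32283422-32283671 (plus strand), Hbb-bt at chr7:103813924-103814173 (minus strand) and Alas2 at chrX:150547167-150547416 (plus strand).

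Hba-a1 promoter: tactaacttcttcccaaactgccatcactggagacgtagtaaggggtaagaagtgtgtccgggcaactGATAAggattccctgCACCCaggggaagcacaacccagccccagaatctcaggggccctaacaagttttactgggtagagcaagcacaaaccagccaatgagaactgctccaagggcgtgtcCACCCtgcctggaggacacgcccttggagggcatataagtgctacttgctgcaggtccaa
Hbb-bt promoter: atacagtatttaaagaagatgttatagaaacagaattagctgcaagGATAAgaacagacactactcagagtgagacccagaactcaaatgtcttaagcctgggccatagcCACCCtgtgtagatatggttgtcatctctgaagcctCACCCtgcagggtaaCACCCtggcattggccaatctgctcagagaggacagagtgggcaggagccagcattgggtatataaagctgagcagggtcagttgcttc
Alas2 promoter: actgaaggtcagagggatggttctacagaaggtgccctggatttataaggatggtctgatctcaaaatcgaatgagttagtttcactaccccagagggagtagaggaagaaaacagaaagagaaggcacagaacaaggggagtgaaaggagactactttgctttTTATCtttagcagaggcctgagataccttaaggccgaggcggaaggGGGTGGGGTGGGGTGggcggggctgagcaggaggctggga

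Hba-a1 holds GATAA 182 bases before the start and CACCC at 167 and 60 bases. Hbb-bt holds GATAA at 204 bases and CACCC at 140, 104 and 89 bases. In Alas2 both lie on the opposite strand, GATAA at 86 bases and CACCC at 40, 35 and 30 bases. The promoters of Epor and Klf1, whose probes read low, hold both motifs too, whereas that of Epb42 (the current name of Epb4.2) holds GATAA only. Of 32851 promoters of the same length, 22.6% hold GATAA, 52% hold CACCC and 10.1% hold both. A match is a description of the letters and not of binding. Of the 9 names, 6 had a promoter in the table.

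Levels are given as log2 of the processed signal minus the 75th percentile of the array, so 0 is that percentile. The scanner files mark each spot as well above background or not. A probe was tested if it was well above background on both arrays of at least 1 group, which 22302 probes were, among them 5 of the 8 member probes: Hba-a1, Hba-a2, Alas2, Slc4a1 and Epor. Of all probes, 35.7% were well above background in replicate 1 of leukemia 686 and 42.1% to 52.4% on the other arrays. Per the file headers, replicate 1 of each leukemia was on slide 1, replicate 2 of each on slide 2, and all proB arrays on slide 3. Slide and group therefore cannot be told apart between leukemias and proB cells. The replicates of dHet proB differed in Xist (-5.96 and 5.17) and in the Y-linked gene Ddx3y (1.56 and -6.14), so they were not copies of the same RNA. On slide 1 Xist was well above background in leukemias 686 (-1.26) and 713 (-2.51), against -6.83 and -6.78 on slide 2. Ddx3y likewise read -3.13 in leukemia 760 on slide 1 and -6.34 on slide 2. Whether this plays a part in the values of slide 1 was not tested, and the globin, Alas2 and Epor results against proB cells are also given from slide 2 alone. Of 12 B lineage marker genes, such as Cd79a and Vpreb1, 10 to 12 were well above background on every array.

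Adult globin RNA was high in the leukemias of mice 713 and 760, lower and uneven in that of mouse 686, present in sorted wt proB cells and, by group mean, lowest in cultured dHet proB cells. Hba-a1 read 2.50 and 0.05 in the replicates of leukemia 686, 6.42 and 5.72 in 713, and 4.9 and 4.02 in 760. It read -3.80 and -4.84 in dHet proB, not well above background on either array, and 0.23 and 0.73 in wt proB. The lowest array of leukemia 713 was thus above every array of the other groups, and replicate 2 of leukemia 686 was below both wt proB arrays. In processed signal these levels ran from 7.04 in dHet proB to 19500 in leukemia 713.

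Hba-a2 followed the same order. It read 2.35 and -0.59 in leukemia 686, 6.10 and 5.09 in 713, 4.52 and 3.41 in 760, -4.38 and -5.72 in dHet proB, and -0.45 and 0.20 in wt proB. Across the 10 arrays the alpha globin probes correlated at r = 0.999, a description only, since the probes share sequence.

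The Hbb-bt probes, reading the beta chain, were well above background on all 10 arrays, dHet proB included. The probe at chr7:110962000-110962059 (mm9, minus strand), the brightest of the 4, read 3.62 and 0.78 in leukemia 686, 7.84 and 6.98 in 713, 6.09 and 5.04 in 760, -0.46 and -0.57 in dHet proB, and 1.89 and 2.22 in wt proB. It overlaps the probe at chr7:110962031-110962090, so these are not separate readings. The probe farthest downstream, at chr7:110961112-110961171, stood apart in dHet proB: it read 1.00 and 1.17 there, close to 1.33 and 1.90 in wt proB. In leukemia 686 it read 3.42 and 0.36, so replicate 2 was below both dHet proB arrays. In mice, the Hbb-bt and Hbb-bs genes of some strains stand in the place of Hbb-b1 and Hbb-b2 of others, and all are close copies, so which beta gene these probes read is uncertain.

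**Figure D1:**
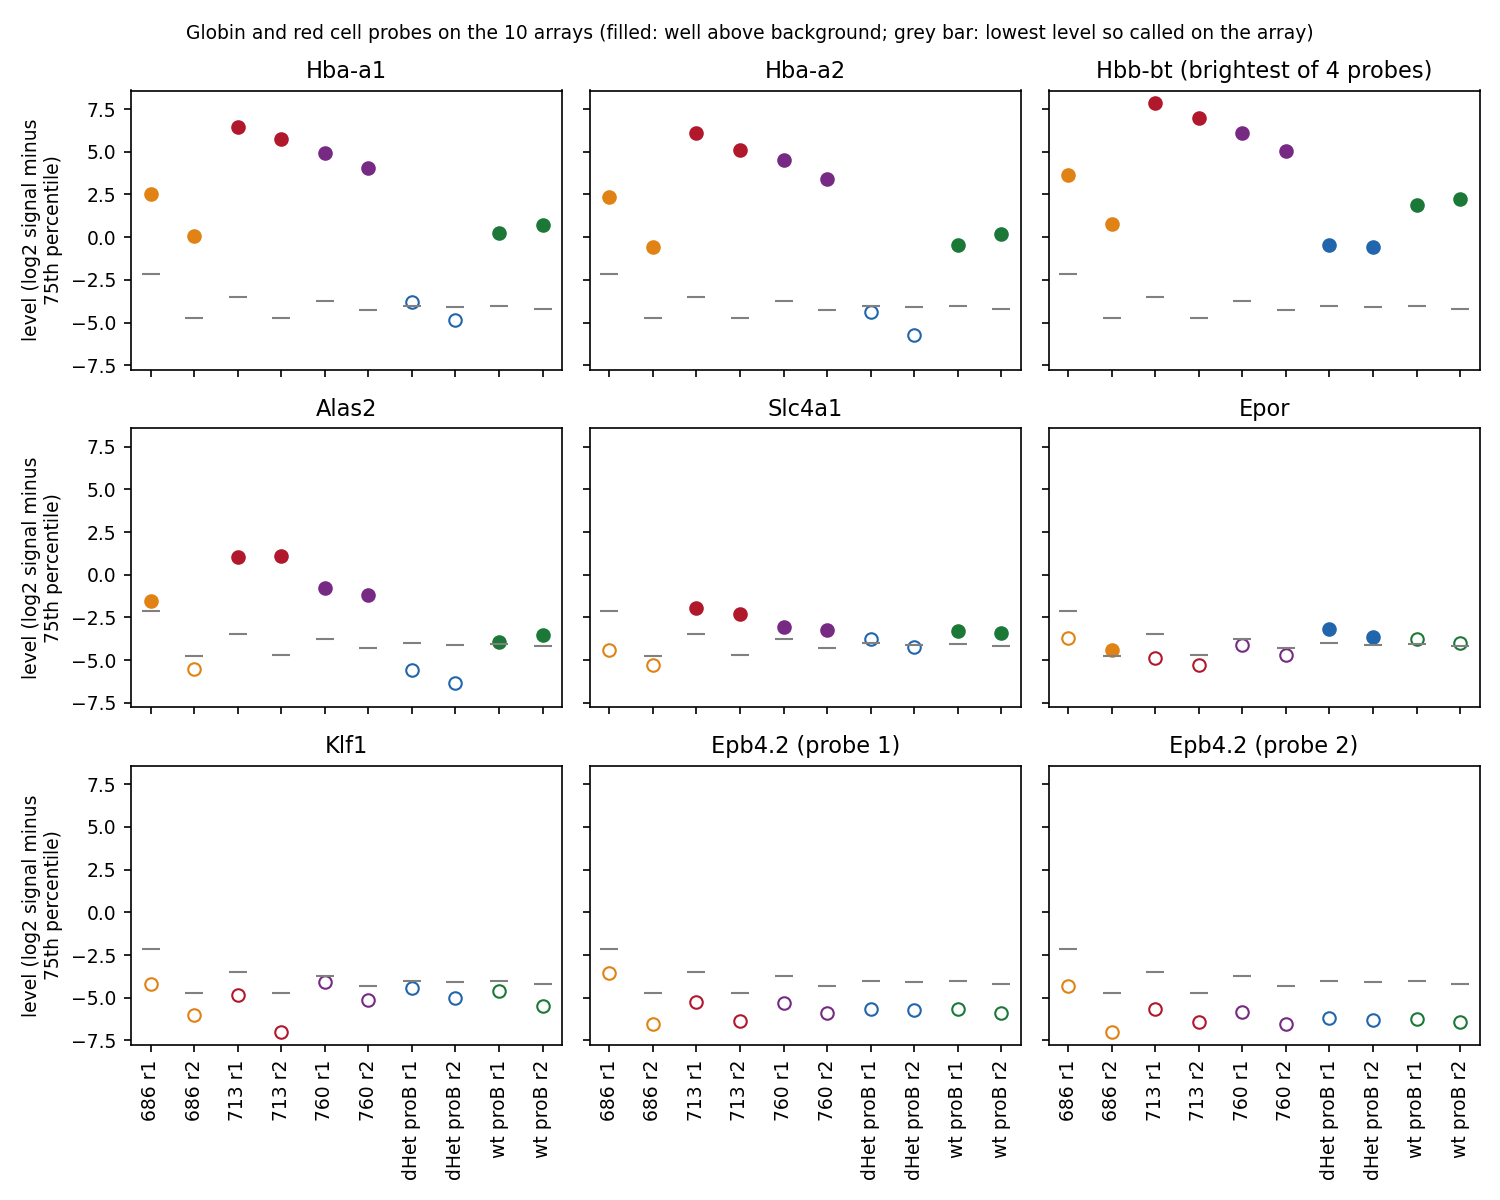
Level of each member probe and of the brightest Hbb-bt probe (y axis, log2 signal minus the 75th percentile of the array) on the 10 arrays (x axis; r1 and r2 are replicates 1 and 2). Filled points are well above background and grey bars mark the lowest level so called on that array. In leukemia 713 Hba-a1 reaches 6.42 and Hbb-bt 7.84, while Klf1 and Epb4.2 have open points on all arrays.

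Alas2, the red cell form of the enzyme that starts heme synthesis, followed the order of the globins across groups, with wt proB above dHet proB and 713 highest. It read -1.56 and -5.49 in leukemia 686, 1.06 and 1.08 in 713, -0.79 and -1.17 in 760, -5.60 and -6.31 in dHet proB, and -3.91 and -3.54 in wt proB. It was well above background on 7 arrays, which leave out replicate 2 of leukemia 686 and both dHet proB arrays. Across the 10 arrays it correlated with Hba-a1 at r = 0.955. Its probe lies at chrX:147004993-147005052 (mm9, plus strand).

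Slc4a1, the anion exchanger of the red cell membrane (band 3), stayed low. It read -4.41 and -5.28 in leukemia 686, -1.94 and -2.31 in 713, -3.05 and -3.23 in 760, -3.76 and -4.22 in dHet proB, and -3.32 and -3.40 in wt proB. Only leukemias 713 and 760 and wt proB were well above background. Epb4.2, the protein that ties band 3 to the membrane skeleton, was not well above background on any array with either of its 2 probes, at chr2:120844707-120844766 and chr2:120844440-120844499. Their levels ran from -6.56 to -3.55 and from -6.98 to -4.31. Slc4a1 is read at chr11:102210256-102210315 and all 3 probes lie on the minus strand.

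Epor, the receptor of erythropoietin, ran the other way at the edge of detection. It read -3.71 and -4.41 in leukemia 686, -4.90 and -5.26 in 713, -4.09 and -4.71 in 760, -3.16 and -3.65 in dHet proB, and -3.75 and -3.99 in wt proB. It was well above background on 3 arrays, both of dHet proB and replicate 2 of leukemia 686. Klf1, which turns on adult beta globin in red cell precursors, was well above background on 0 of 10 arrays, with levels from -7.02 to -4.10. The probes lie at chr9:21763422-21763481 (Epor, minus strand) and chr8:87428881-87428940 (Klf1, plus strand) on mm9.

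In the leukemias against wt proB, 0 of the 5 tested members passed the threshold, a limma p adjusted by Benjamini-Hochberg over all 22302 probes under 0.05. Of all probes, 27.7% were higher and 31% lower by the same rule. Hba-a1 differed by 3.45 ± 1.34 (log2, SE; 3 mouse means and 2 wt arrays; limma adjusted p 0.0688, unadjusted 0.0428). Hba-a2 differed by 3.6 (limma adjusted p 0.0606, unadjusted 0.0368), and Alas2 by 2.58 ± 1.25 (limma adjusted p 0.124). Slc4a1 differed by -0.01 and Epor by -0.64, neither past the threshold, and only the alpha globins had an unadjusted p under 0.05. This count moved with mouse 686 and with other choices. Without mouse 686, Hba-a1 was 4.78 ± 0.65 higher (limma adjusted p 0.0042), Hba-a2 4.9 and Alas2 3.77 (limma adjusted p 0.0112), 3 members in all; without its replicate 2 alone, Hba-a1 was 3.86 higher (limma adjusted p 0.0227). A block for the replicate number took the 6 leukemia arrays, not the 3 mouse means, as replicates. It pairs arrays by slide in the leukemias only. There 3 members were higher, Hba-a1 by 3.45 ± 0.5 (limma adjusted p 0.00162), and 1, Epor, lower (-0.64, limma adjusted p 0.00922). Arrays as replicates with no block gave Hba-a1 at 3.45 ± 0.64 (limma adjusted p 0.00361). From slide 1 alone Hba-a1 was 4.12 higher (limma adjusted p 0.0221), and from slide 2 alone 2.78 (limma adjusted p 0.187), with Alas2 at 1.86 (limma adjusted p 0.415), the Hbb-bt probes at 1.99 to 2.46 and Epor lower at -0.93 (limma adjusted p 0.0399).

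Against dHet proB, 3 of the 5 tested members were higher in the leukemias and 1, Epor, lower, where 19.3% of all probes were higher and 27.4% lower. Epor was tested only because both dHet proB arrays, where it is high, were well above background, so the filter favoured its direction. Hba-a1 was higher by 8.26 ± 1.34 (limma adjusted p 0.00515), on 6 of 6 leukemia arrays above both dHet proB arrays, and by 4.89 in the authors' deposited value table. Since dHet proB was not well above background, this is at least 236-fold in the processed signal. The bound is taken against the lowest level called on each dHet proB array, or the array's own reading where that is higher. It does not hold for the value table, where the difference is smaller. Hba-a2 was higher by 8.53 (limma adjusted p 0.00464), at least 185-fold. From slide 2 alone Hba-a1 was 7.58 higher (limma adjusted p 0.0134) and Hba-a2 7.68 (limma adjusted p 0.0135). Alas2 was higher by 4.81 ± 1.25 (limma adjusted p 0.0239), at least 7.51-fold. Normexp background correction, which lifts dim spots, gave 1.45 (limma adjusted p 0.156), and undetected arrays set to the lowest level called gave 3.03 (limma adjusted p 0.071). The call was lost from slide 2 alone (4.09, limma adjusted p 0.116), without replicate 1 of leukemia 686 (4.15, limma adjusted p 0.11) and without either dHet proB array (4.46 to 5.16), and stood at an adjusted p of 0.0502 (limma) without either wt proB array.

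Epor was lower by 1.11 ± 0.33 (-1.11, limma adjusted p 0.0376), with only 1 of 6 leukemia arrays well above background. With undetected arrays set to the lowest level called on each, the difference was -0.39 (limma adjusted p 0.342), and in the value table it was -0.08 (limma adjusted p 0.424). From slide 2 alone it was -1.39 (limma adjusted p 0.0139) and from slide 1 alone -0.83 (limma adjusted p 0.123). The Epor call was lost without any 1 of the arrays leukemia 686 replicate 2 (limma adjusted p 0.107), 713 replicate 1 (0.0572), 760 replicate 2 (0.0688), either dHet proB array (0.203 and 0.0803) or either wt proB array (0.0692). Slc4a1 did not pass the threshold (0.62 ± 0.75, limma adjusted p 0.525). Of the Hbb-bt probes, 3 of 4 were higher, by 5.50, 5.58 and 5.58, and the downstream one differed by 3.19 (limma adjusted p 0.0673). These 3 calls were lost from slide 2 alone (4.77 to 4.9, limma adjusted p 0.0524 to 0.0669), without leukemia 686 replicate 1 (limma adjusted p 0.0514 to 0.066) and without either dHet proB array (limma adjusted p 0.0829 to 0.103).

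In dHet proB against wt proB, 0 of the 5 tested members were higher and 2 lower, where 13.9% of all probes were higher and 13.2% lower. Hba-a1 was lower by 4.80 ± 0.79 (-4.80, 2 against 2 arrays, limma adjusted p 0.00485), so wt proB was at least 21.5-fold higher. Hba-a2 was lower by 4.92 ± 0.97 (-4.92, limma adjusted p 0.0101), so wt proB was at least 15.3-fold higher. With normexp background the differences were -1.84 (limma adjusted p 0.166) and -1.70 (limma adjusted p 0.304), and in the value table -1.82 (limma adjusted p 0.0273) and -1.66 (limma adjusted p 0.0676). All of these are smaller than the bounds, which hold for the processed signal only. The Hba-a2 call was lost without dHet proB replicate 2 (-4.25, limma adjusted p 0.0702) and without wt proB replicate 1 (-5.25, limma adjusted p 0.0503) or 2 (-4.6, limma adjusted p 0.0691). Alas2 differed by -2.23 and Slc4a1 by -0.63, with wt proB detected and dHet proB not, and neither passed. Epor differed by 0.46 and did not pass. The Hbb-bt probes differed by -2.48, -2.57 and -2.43 (limma adjusted p 0.0545 to 0.0631) and, for the downstream one, by -0.54. The first 3 did not pass here, but each passed under 11 of 25 alternatives. With only the groups compared, for example, their limma adjusted p was 0.000527 to 0.000675. The downstream probe passed under none. In these bulk samples, fewer globin-bearing cells and less globin RNA per cell cannot be told apart.

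**Figure D2:**
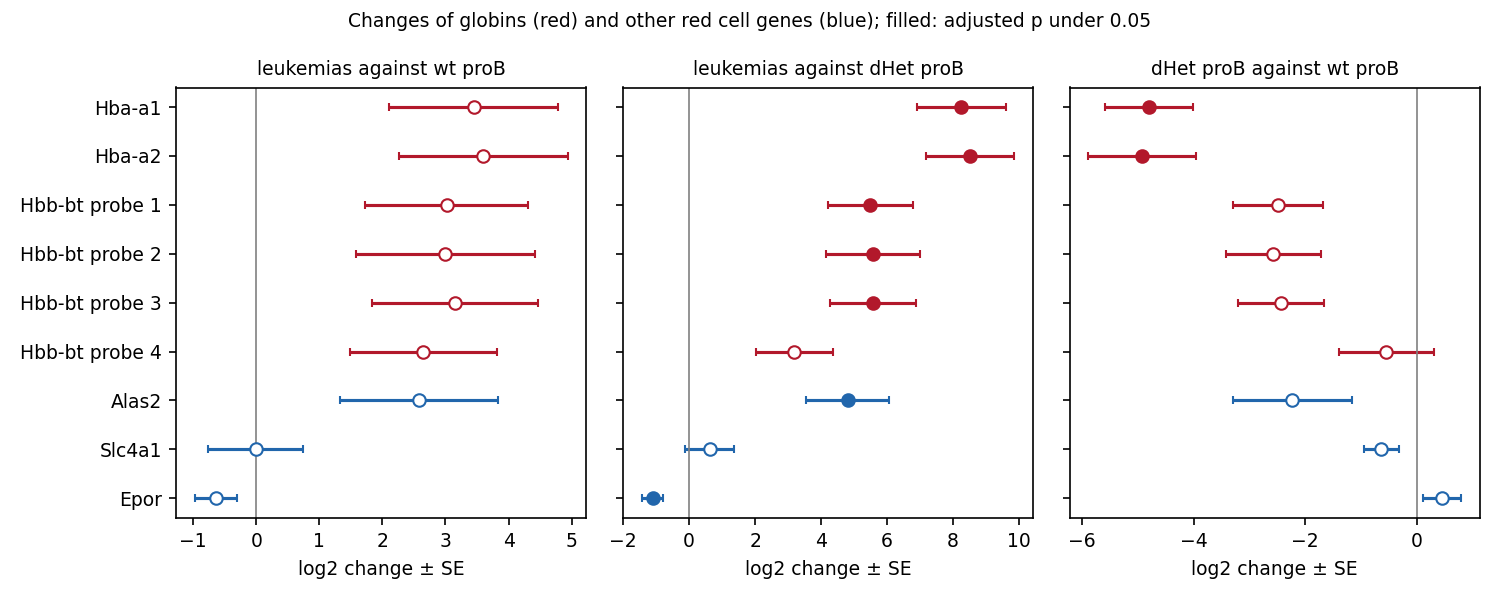
Log2 change with its SE (x axis) of the tested globin probes (red) and other red cell members (blue; y axis) in 3 comparisons. Filled points have an adjusted p under 0.05. Against dHet proB the alpha globins are at 8.26 and 8.53, Alas2 at 4.81, Slc4a1 at 0.62 and Epor at -1.11.

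The leukemias differed among themselves in the order 713, 760, 686 for globins, Alas2 and Slc4a1 on both slides. Leukemia 686 against the other 2 had 2 of the 5 tested members called, in either direction, where 2.96% of all probes were. Hba-a1 was lower by 3.99 ± 0.68 (-3.99, limma adjusted p 0.0303) and Slc4a1 by 2.21 ± 0.28 (-2.21, limma adjusted p 0.0118). For Slc4a1 the other leukemias were at least 1.74-fold higher, as it was not well above background in 686. Leukemia 713 against the other 2 also had 2 of the 5 called, where 12.2% of all probes were: Hba-a1 at 3.20 (limma adjusted p 0.0242) and Slc4a1 at 1.87 (limma adjusted p 0.00588). Leukemia 760 had 0 of the 5 called, where 9.64% of all probes were; its Hba-a1 differed by 0.79 (limma adjusted p 0.61, unadjusted 0.285).

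Replicate numbers of the leukemias share a slide, and their deviations correlated at 0.44 to 0.63 between mice. With the replicate number as a block, Hba-a2 also passed in 686 (-3.90, limma adjusted p 0.0293), and in 713 Hba-a2 (3.18, limma adjusted p 0.022), Alas2 (3.32, limma adjusted p 0.0486) and Epor (-0.85, limma adjusted p 0.0155) passed too. Epor was well above background on neither array of 713 and on 1 of 4 of the others, and with undetected arrays at the lowest level called its difference was -0.45. With slide as a block over the leukemia arrays alone, Hba-a1 (limma adjusted p 0.0549) and Hba-a2 (0.0634) did not pass in 686, nor did Alas2 in 713 (0.106), while Hba-a2 (0.0336) and Epor (0.035) passed in 713. The Hba-a1 calls were lost when single arrays were left out. In 686 this held for either array of 713 (limma adjusted p 0.0717 and 0.0637), of 760 (0.0819 and 0.0569), of dHet proB (0.0614) and of wt proB (0.0782). In 713 it held for either of its own arrays (limma adjusted p 0.13 and 0.09), 760 replicate 2 (0.0616) and either wt proB array (0.0518). With undetected arrays at the lowest level called, Slc4a1 was -0.80 in 686 (limma adjusted p 0.657) and 1.16 in 713 (limma adjusted p 0.353). Without mouse 713, Hba-a1 in 686 was -3.19 and did not pass (limma adjusted p 0.109). Without mouse 686, Hba-a1 in 713 was 1.61 and did not pass (limma adjusted p 0.0766).

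**Figure D3:**
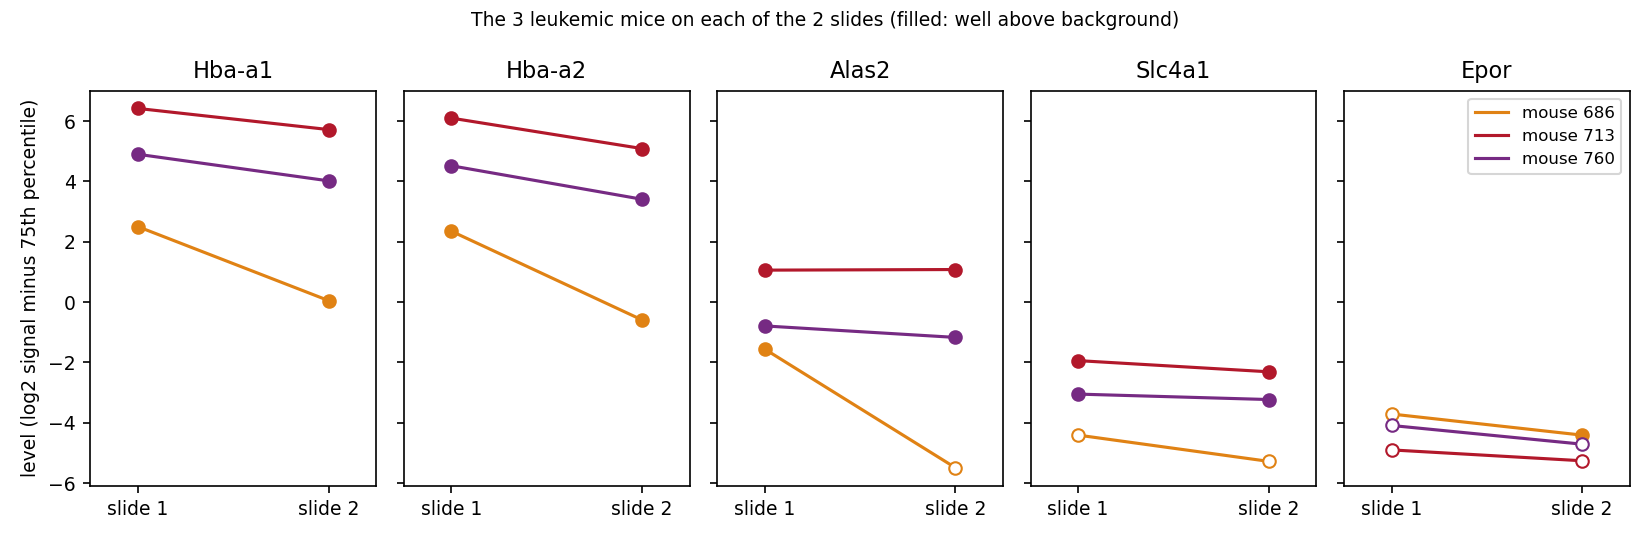
Level (y axis, log2 signal minus the 75th percentile) of the tested members in the 3 leukemic mice on slides 1 and 2 (x axis). Filled points are well above background. Hba-a1 falls from 2.50 to 0.05 in mouse 686 and from 6.42 to 5.72 in mouse 713, and the order of the mice is the same on both slides.

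The other red cell genes were read from lists chosen with earlier results of these data known, 1 probe a gene. Their counts stand beside 27.7% of all probes higher and 31% lower in the leukemias against wt proB, and 19.3% higher and 27.4% lower against dHet proB, and several of the shares below are near these. Of 10 heme synthesis genes tested, 6 were higher and 1 lower in the leukemias against wt proB (median 0.62, against -0.07 over all probes). Abcb10, a mitochondrial transporter, was 1.81 higher and Alas1, the form of the starting enzyme in all tissues, 0.96, while Ppox, a late enzyme of the pathway, was 0.51 lower (-0.51). Against dHet proB 3 were higher and 0 lower (median 0.27, against -0.15 over all probes), among them Alad by 1.97 and Alas1 by 0.54. Of 6 iron uptake genes, 3 were higher and 1 lower against each proB group (median 0.91 against wt, 0.34 against dHet). The lower gene was Slc11a2, an iron transporter, against wt (-3.30) and Slc25a37, a mitochondrial iron carrier, against dHet (-0.47). Tfr2, a transferrin receptor, was 2.62 higher than in wt and 2.70 than in dHet, and Steap3, an iron reductase, at least 2.79-fold and 2.69-fold.

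Membrane and skeleton genes of the red cell were mostly undetected. Of 17 on the array, 12 failed the detection filter, and Sptb (a spectrin), Ank1 (ankyrin), Rhag and Kel were well above background on 0 arrays. The 5 tested were Epb41, Gypc, Aqp1, Icam4 and Cd36, of which 4 were higher against wt proB (median 1.32) and 3 against dHet proB (median 1.13), 0 lower in each. Gypc, glycophorin C, was 1.32 and 1.13 higher. Aqp1, a water channel, was at least 2.06-fold and 1.98-fold higher, and Icam4 at least 2.90-fold and 2.80-fold. A gene that passed the filter only through the leukemias had to be high there, as Aqp1, Icam4 and Steap3 did.

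Among the factors that drive red cell genes, Gata1 and Gata2 were well above background on 0 arrays. Of 12 tested erythroid transcription factors, 5 were higher and 3 lower against wt proB, and 3 higher and 4 lower against dHet proB (medians 0.41 and 0.08). Tal1 was 3.95 higher than in wt proB and Nfe2 3.22, whereas Gfi1b was -2.15 and Cbfa2t3 -1.45. Between the proB groups Nfe2 (2.71) and Tal1 (1.78) were higher in dHet proB, where Hba-a1 and Hba-a2 were lower. Of 9 genes of erythropoietin signalling, 3 were higher and 4 lower against wt proB (median -0.55); Cish, a target of STAT5, was 3.45 higher and Bcl2l1, a survival gene, -2.42. Against dHet proB 1 was higher and 4 lower (median -0.69), among them Kit, the receptor of stem cell factor, at -2.91. Epo itself was well above background on 0 arrays and Epor on 3, while all 9 tested genes of the list were on every array. Their changes therefore cannot be assigned to erythropoietin.

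Of 16 late red cell proteins tested, 5 were higher and 3 lower against wt proB, and 3 higher and 3 lower against dHet proB (medians 0.42 and 0.11). Car2, a carbonic anhydrase, was 3.16 and 4.41 higher, and Hemgn at least 8.10-fold higher than in wt proB. Car1, a carbonic anhydrase of red cells, was -2.21 against wt proB, and Ahsp, the chaperone of free alpha chains, was -1.54 and well above background on 1 of 6 leukemia arrays. It passed the filter only through wt proB, where it is high, which favoured a lower call against wt proB. The embryonic globins Hba-x, Hbb-bh1 and Hbb-y did not pass the filter.

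In dHet against wt proB, where 13.9% of all probes were higher and 13.2% lower, heme synthesis had 1 of 10 higher (Abcb10, 1.53) and 1 lower (Alad, -1.27), with a median of 0.26 against 0.10 over all probes. Iron uptake had 0 of 6 higher and 1 lower (Slc11a2, -2.19). Membrane genes had 1 of 5 higher (Epb41, 0.88) and 1 lower call, Icam4, which was well above background in neither group and so shows no difference between detected levels. Erythroid transcription factors had 3 of 12 higher and 1 lower (Cbfa2t3, -1.53). Late red cell proteins had 3 of 16 higher (Cat, Prdx2 and Hemgn) and 1 lower (Ahsp, wt proB at least 1.83-fold higher), and erythropoietin signalling had 4 of 9 higher and 1 lower, with Kit at 4.86 and Cish at 2.36 higher.

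**Figure D4:**
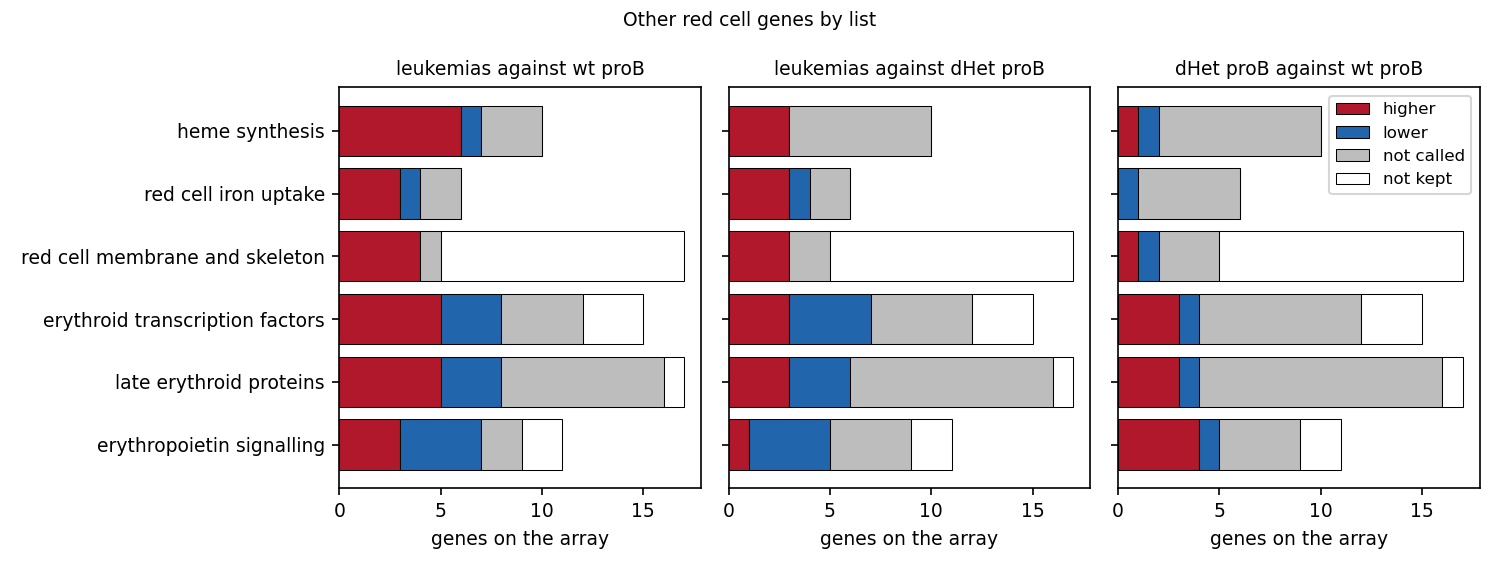
Number of genes on the array (x axis) in 6 red cell lists (y axis) that were higher, lower, not called or not kept by the detection filter, in 3 comparisons. For membrane and skeleton genes the open part is 12 of 17.

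Markers of other cells moved with the globins in part, and their part in the results was not tested. The counts stand beside the same shares of all probes called, and in dHet against wt proB beside 13.9% higher and 13.2% lower. Neutrophil granule genes were lower in 8 of 8 tested genes in dHet proB against wt proB (median -5.95) and in the leukemias against wt proB (median -4.17), where Hba-a1 differed by 3.45. Some of these genes, such as Camp and Retnlg, passed the filter only through wt proB, which favoured that direction. Their summed level was 6.03 and 7.06 in wt proB, -0.54 and -1.49 in dHet proB, and -1.49 to 4.86 in the leukemias, highest in 686. Macrophage genes were higher in 7 of 12 in the leukemias against dHet proB and lower in 9 of 12 in dHet against wt proB. In the leukemias against wt proB, 1 of 12 was higher and 3 lower (median -0.81), while 0 of the 6 alpha and beta globin probes passed (median 3.09). Their summed level was 6.3 and 6.7 in leukemia 686, 5.74 and 5.76 in 713, and 3.87 and 3.71 in 760. It was 4.23 and 4.43 in dHet proB, and 4.2 and 4.69 in wt proB. Of the 12 genes, 4 and 3 were well above background in dHet proB, and 12 on both arrays of wt proB. In each list the summed level is set mostly by the brightest genes. Of 13 platelet and megakaryocyte genes 3 were tested, of which Itgb3, an integrin of platelets and macrophages, was 3.51 higher against dHet proB and -3.00 against wt proB; their summed level was -2.78 to 0.39 in the leukemias, -3.07 and 0.96 in dHet proB, and 1.79 and 1.07 in wt proB, and while Ppbp, Itga2b and others were well above background on 0 arrays, Pf4, Gp9 and Gp6 were on 4, Gp5 on 3, and Treml1 and Clec1b on 2. Of the T cell genes 3 of 6 were higher in the leukemias against each proB group, with a summed level of 3.34 to 5.03, against 3.17 and 3.48 in dHet proB and 1.88 and 1.98 in wt proB. Endothelial and stromal genes were at 4.13 to 6.73, 4.23 and 4.33, and 2.70 and 2.85 in the same order. Of these genes 2 of 6 were higher and 2 lower against wt proB, and 0 of 6 higher and 2 lower against dHet proB.

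Among 19946 tested probes with a gene symbol, members left out, those most like Hba-a1 over the 10 arrays were Xbp1 (Pearson r = 0.989), a factor of the secretory stress response, then 3 Hbb-bt probes (0.979, 0.978 and 0.972) and Kctd12 (0.972). Xbp1 ranged from -0.08 to 2.67, against -4.84 to 6.42 for Hba-a1. Most like Epor were Trim6 (0.946), Gstm1 (0.941), Srgn (0.94), Fcer1g (0.936) and Arl13b (0.935). Klf1 was not detected and has no such list. These are descriptions over arrays that share groups and slides, with no test. The median of all probes moved with the scaling: it was -0.07 for the leukemias against wt proB (6182 probes higher, 6909 lower), 0.49 with each array's median subtracted (8974 and 3887) and -0.44 with the percentile of probes detected on all arrays (3996 and 9386). For the leukemias against dHet proB it was -0.15 (4314 higher, 6107 lower), 0.06 (4584 and 3603) and -0.29 (3579 and 7373), and for dHet against wt proB 0.10 (3108 and 2949), 0.45 (3285 and 1860) and -0.13 (2335 and 3845).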

How the data were processed

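Each array was a 1-colour Cy3 hybridisation of total RNA. Per the file headers, the deposited scanner files hold intensity values from Feature Extraction 10.5.1.1; version 9.1 is the one in the submitters' processing notes. The authors' deposited value table holds log2 values whose columns share a maximum of 18.5 and have medians of 6.83 to 6.85; its background correction and centring are not given in the sources used here, and it served as an alternative.

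Control spots were left out, and outlier spots too unless every spot of a probe on that array was an outlier, as for 211 probes on some array. Spots of a probe were averaged, and levels were the log2 processed signal minus each array's 75th percentile. No spot was saturated. The precision is limited by the number of arrays, 2 a group. Tests used limma 3.58.1 in R 4.3.3, with Benjamini-Hochberg adjustment over 22302 probes. The leukemias were compared with each proB group over 7 samples, the 2 arrays of a mouse averaged; other comparisons used all 10 arrays in 5 groups. The spread is pooled over leukemia and proB samples. Where a group was not well above background on any array, a fold is a bound. It sets the other group's mean against the lowest level called on each undetected array, or that array's own reading where higher. Such a bound holds for the processed signal at this scaling, and not for other background corrections.

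The members and lists were chosen with earlier results of these data known. Named genes were all member probes, up to 4 of the largest called changes of each list at its brightest probe, with undetected genes named as such, and the 5 probes most like Hba-a1 and Epor. Some listed genes are not reported here by name. Ppox, Slc25a37, Ahsp, Cd36 and Itgb3 were named after their values were seen. Alternatives covered background correction, scaling, filters, blocks for slide, scan day and replicate, and each array or mouse left out. The fits were tested on simulated arrays drawn independently, with no added spread between mice or slides. Those runs cannot tell how the fits handle such spread. Where a summed level is given, it is the log2 of the summed signals of a list's tested genes, so the brightest weigh most.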

Additional observations from a re-analysis of the deposited data

Results flagged for a closer look

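The difference between leukemias passed the test in 4 cases. In leukemia 686 against the other 2, Hba-a1 differed by -3.99 and Slc4a1 by -2.21. In leukemia 713 against the other 2, Hba-a1 differed by 3.2 and Slc4a1 by 1.87. Each leukemia is 1 mouse, and the tests rest on the spread of its paired arrays, pooled over groups.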

How the results depend on the processing

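Hba-a1 and Hba-a2 stayed higher in the leukemias than in dHet proB under all 28 alternatives run (4.89 to 9.59 and 4.68 to 9.83), whereas Alas2 lost its call under 11 and Epor under 17. Members higher in the leukemias than in wt proB, 0 in the report, numbered 1 with normexp background or slide as a random block, 2 with array median scaling or scan day as a block, and 3 with the replicate block, arrays as replicates, without mouse 686 or from slide 1 alone. Members lower there numbered 1 with the percentile over probes detected on all arrays, scan day as a block, the replicate block or slide 2 alone. The slide, scan day and replicate blocks took leukemia arrays, not mouse means, as replicates, so their p-values do not measure the spread between mice. Members lower than in dHet proB, 1 in the report, numbered 0 with normexp background, array median scaling, the authors' value table, no filter, a floor at the lowest level called, eBayes trend and robust, slide as a random block, only the groups compared, without mouse 760, or from slide 1 alone. Members lower in dHet than in wt proB, 2 in the report, numbered 0 with normexp background, 1 in the authors' values, 4 with only the groups compared and 3 without mouse 686, where Alas2 passed. The probes lower there moved as well, from 2949 in the report to 321 with normexp background and 5901 with only the groups compared.

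Members called in leukemia 686, 2 in the report, numbered 0 with normexp background, no filter or only the leukemias, 1 with the floor, without mouse 713 or with slide as a block over the leukemias, and 4 with array median scaling, the authors' value table, slide as a random block or scan day as a block. In leukemia 713, also 2, they numbered 1 with no filter or only the leukemias, 4 with array median scaling, the percentile over probes detected on all arrays, the authors' value table, eBayes trend and robust or slide as a block over the leukemias, and 5 with slide as a random block, scan day as a block or the replicate block. In leukemia 760, 0 in the report, they numbered 2 without mouse 686 and 1 without mouse 713. Slide blocks, single slides and the Hbb-bt probes were added after seeing the data.

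Leaving out single arrays gave 0 to 3 members higher and 0 to 0 lower against wt proB, 2 to 3 higher and 0 to 1 lower against dHet proB, 1 to 3 lower in dHet than in wt proB, 1 to 4 called in leukemias 686 and 713, and 0 to 1 in 760. The value of Slc4a1 against wt proB, -0.01, turned to 0.34 with quantile normalization, 0.56 with array median scaling, 0.16 in the value table, 0.46 with the floor, 0.73 without mouse 686 and 0.23 on slide 1, and ranged from -0.15 to 0.14 without single arrays. Slc4a1 against dHet proB was -0.01 without mouse 713. Epor against wt proB turned to 0.06 in the value table and 0.07 with the floor, and in leukemia 686 to -0.38 with normexp background and -0.06 in the value table. The cause was not tested. Keeping only probes well above background on all 10 arrays left 0 members of 13317 probes and gave no value. Replicate numbers paired only the leukemias, and with proB groups the correlations were -0.04 to 0.08. Values near background (Slc4a1, Epor, Alas2 in dHet proB) are limited by signal over background.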
